A study of Mus musculus with 43 samples.

Results

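The vacuolar proton ATPase (V-ATPase) is the pump that acidifies lysosomes, endosomes and the Golgi. Its genes were followed here in a pooled CRISPR screen of mouse CD8+ T cells as the sgRNAs whose target symbol began with *Atp6v* or *Atp6ap*. These were 115 of the 10640 sgRNAs in the table, 5 for each of 23 of the 2078 genes targeted. They comprised 13 genes of the cytosolic V1 domain, 9 genes of the membrane V0 domain and 1 accessory gene, *Atp6ap1*. Of these, 7 encode subunits for which the table targets no second isoform (*Atp6v1a*, *Atp6v1d*, *Atp6v1f*, *Atp6v1h*, *Atp6v0b*, *Atp6v0c* and *Atp6ap1*) and are called single-copy below. The other 16 are paralogous isoforms of 7 subunits, 8 known as broadly expressed and 8 known mainly from a few tissues such as kidney, testis, brain or bone.

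As background, V1 hydrolyses ATP and turns a central stalk, and the stalk turns a ring of proteolipid subunits in V0 that carries protons across the membrane past subunit a. A peripheral stalk made of subunits E and G holds the rest of the pump still, and subunits C and H join the domains and regulate their coupling. The acid pH made by the pump activates lysosomal hydrolases and releases receptors and iron from endocytosed cargo, and the lysosomal pump also takes part in the sensing of amino acids by mTORC1.

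The cells were OT-I T cells, whose T cell receptor recognises ovalbumin, from Cas9 knock-in mice. They carried a lentiviral library of metabolic genes marked by CD90.1 and were given to mice bearing orthotopic pancreatic tumours of the ovalbumin-expressing KPC_OVA line. T0 is the transduced T cells on the day of transfer (3 libraries). All other libraries are CD90.1+ OT-I T cells sorted 7 days later from mice given anti-PD-1 or control IgG from the day of transfer, so that every group, T0 included, carried Cas9 and the library. Each treatment had 3 libraries from the primary tumour, spleen, lung, draining lymph nodes and nondraining lymph nodes. Peritoneal metastases had 2 libraries under IgG and 3 under anti-PD-1, and liver had 2 under IgG and 1 under anti-PD-1. One peritoneal library under anti-PD-1 carries a tissue label of spleen against its title and was used by its title. The files do not say how many mice a library pools, so p-values measure the spread between libraries only.

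Levels are given on the log2(signal + 1) scale, as the mean of a gene's 5 sgRNAs less the library's own median over the 250 nontargeting sgRNAs. A change is a group's level minus that of T0. The authors had corrected the values for batch effects between organs, and what this did to changes against T0 was not tested. Summed signal per library lay between 1788300 and 4228882. An sgRNA's lowest value was its own minimum over the libraries of the same replicate number. It was counted only in libraries that shared this minimum with at least 1 other. Many sgRNAs sat at this shared lowest value. That was the case for at most 0.0188% of all sgRNAs in T0, for 2.78% to 42.6% (median 7.10%) in the 26 libraries outside the lymph nodes, and for 45.4% to 91.6% in the 12 lymph node libraries. The highest share outside the lymph nodes was in lung, IgG replicate 1, where 38.4% of the nontargeting sgRNAs also sat at the lowest value. None of the 115 V-ATPase sgRNAs was at the lowest value in T0, against 7.83% to 58.3% (median 28.7%) outside the lymph nodes. Libraries of one replicate number shared technical features. In the lymph nodes the nontargeting median was 1.16 to 1.26 for number 1, 0.75 to 0.82 for number 2 and 0 to 0.44 for number 3, and 45.4% to 58.6% of all sgRNAs were at the lowest value for number 3 against 77.6% to 91.6% for the others. Whether a number marks a sequencing run is not given in the sources used here. A gene whose sgRNAs sit at the lowest value has reached the floor of the assay, so its change is limited by the depth of the library.

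In T0 the V-ATPase sgRNAs were on average close to the nontargeting ones, and their median lay below that of all genes in replicates 1 and 2 only. The median of the members was -0.19, -0.13 and 0.48 in T0 replicates 1, 2 and 3, against 0.20, 0.17 and 0.26 for all genes. The mean T0 level ran from -0.33 to 0.66 over the 23 genes (median 0.05), and 11 (47.8%) lay below the nontargeting median, against 26.1% of all genes. The median was 0.05 for single-copy subunits, 0.05 for broad isoforms, 0.15 for isoforms of few tissues, and 0.21 over all 2078 genes.

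After 7 days in the mouse, sgRNAs against 14 of the 23 genes were depleted from T cells outside the lymph nodes. By limma, with Benjamini-Hochberg adjustment over 2078 genes and a threshold of 0.05, the mean of the 10 groups outside the lymph nodes was below T0 for all 7 single-copy subunits and for 7 of 8 broad isoforms. The exception among the broad isoforms was *Atp6v0a1*. None of the 8 isoforms of few tissues passed this test, nor did any at an unadjusted p under 0.05. The background in this comparison was 15.3% of all genes depleted. With log2(signal + 10) in place of log2(signal + 1), the mean changes of these 14 members were smaller, between -3.66 (*Atp6v0c*) and -1.71 (*Atp6v1c1*), by more than 1.5 times for 10 of them, and all 14 still passed. The size of a change below therefore belongs to the log2(signal + 1) scale. No V-ATPase gene was enriched by limma in any of these groups, and 0 of the 230 values were higher than T0 at an unadjusted p under 0.05.

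Group by group, 117 of the 230 gene-by-group values outside the lymph nodes were called depleted, against 12.4% of all such values. In the primary tumour, 13 members were depleted under IgG (11.5% of all genes) and 11 under anti-PD-1 (11.9%). In spleen there were 13 under IgG (12.2%) and 13 under anti-PD-1 (12.8%). In lung there were 14 under IgG (18.0%) and 13 under anti-PD-1 (16.6%). Peritoneal metastases had 11 under IgG (11.2%) and 12 under anti-PD-1 (13.0%). Liver had 11 under IgG (10.8%) and 6 under anti-PD-1 (6.16%), the latter from 1 library whose spread is assumed to be like that of the other groups. All these comparisons share the 3 T0 libraries. For 13 of the 23 genes every one of the 26 libraries lay below every T0 library, which held for 16.2% of all genes.

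Single-copy subunits took 61 of 70 possible calls (87.1%) and paralogous isoforms 56 of 160 (35.0%). Within the paralogous genes the calls fell almost wholly on the broad isoforms, with 55 of 80 (68.8%) against 1 of 80 (1.25%) for the isoforms of few tissues. That single call was *Atp6v1e2*, a testis isoform, in lung under IgG, at -2.75 ± 1.01 (SE) and adjusted p = 0.0491 by limma, in the group where the median of all genes was also lowest at -1.42, and it was lost under 31 of the 52 alternatives. The median change of single-copy subunits ran from -5.43 to -3.82 over the 10 groups and that of broad isoforms from -5.29 to -3.26. It ran from -1.23 to 0.15 for isoforms of few tissues, a range close to that of all genes, -1.42 to -0.20. Per library, the single-copy median lay below the paralogous median in 26 of 26 libraries, by -4.67 at most, -3.46 in the median library and -1.66 at least. The broad isoforms lay below those of few tissues in 26 of 26 as well, by -5.73 to -2.99. Averaged over the 26 libraries, the single-copy minus paralogous difference was -3.50 ± 0.19 (SD over the means of replicate numbers 1 to 3). Over the 26 single libraries its SD was 0.64. Within replicate numbers 1, 2 and 3, each against its own T0 library and with no test, the median change outside the lymph nodes was -4.66, -5.16 and -4.75 for single-copy subunits, -3.84, -4.68 and -5.37 for broad isoforms and -0.69, -0.53 and -0.53 for isoforms of few tissues. Counting the proteolipid genes *Atp6v0b* and *Atp6v0c* as paralogues of each other gave -2.29.

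The lowest mean change of the 23 genes was that of *Atp6v0c*, which encodes the main proteolipid of the rotor ring of V0. The next was that of *Atp6v1g1* of the V1 peripheral stalk, which also had the lowest change in any one group, -7.29 in lung under anti-PD-1. The level of *Atp6v0c* was -0.91, -0.49 and 0.41 in T0 replicates 1, 2 and 3. In tumours it was -7.68, -7.68 and -6.15 under IgG and -6.01, -6.44 and -7.18 under anti-PD-1. The spleen levels were -7.44, -7.54 and -5.40 under IgG and -5.86, -7.34 and -5.79 under anti-PD-1. All 12 libraries lay far below all 3 of T0, and in 5 of the 12 every one of the 5 sgRNAs sat at the lowest value. The change was -6.84 ± 0.82 (SE) in tumours under IgG (limma adjusted p = 1.32e-08), lay between -6.94 and -5.98 over the 10 groups, and averaged -6.43 ± 0.61, rank 10 from the lowest of 2078 genes.

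*Atp6v0b*, the second proteolipid of the ring, was at -0.66, -0.46 and 0.14 in T0. In tumours its level was -5.28, -5.79 and -4.53 under IgG and -5.68, -6.02 and -5.83 under anti-PD-1. Spleen libraries stood at -7.27, -4.93 and -5.89 under IgG and -4.73, -6.02 and -4.62 under anti-PD-1. The groups did not overlap with T0. It was depleted in 10 of 10 groups, with changes from -6.63 to -4.51 and a mean of -5.40 ± 0.64 (limma adjusted p = 9.98e-10).

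Subunit d joins the ring to the central stalk and has a broad isoform, *Atp6v0d1*, and an osteoclast and kidney isoform, *Atp6v0d2*. *Atp6v0d1* was at -0.43, -0.20 and 0.48 in T0. It fell to -5.27, -4.11 and -4.23 in tumours under IgG and -4.74, -5.51 and -3.37 under anti-PD-1. In the spleen it stood at -5.03, -5.34 and -6.12 under IgG and -5.32, -6.18 and -3.86 under anti-PD-1. No library reached the T0 range. *Atp6v0d2* was at 0.47, 0.16 and 0.51 in T0. In tumours it was at -0.01, 0.41 and 0.83 under IgG and -0.24, 0.25 and 0.87 under anti-PD-1. Spleen values were -0.03, -1.10 and -0.79 under IgG and 0.03, -1.65 and -0.58 under anti-PD-1. The tumour values overlapped T0 while all 6 spleen values lay below it, and no group passed the test. The within-library difference between the isoforms moved by -4.46 from T0 in tumours, -4.19 in spleen and -5.07 in lung.

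These isoform differences were tested as 8 pairs of a broad with a few-tissue isoform in 3 organs, 6 libraries of both treatments against 3 of T0, by a two-sided exact permutation test. The smallest p this design can give is 0.0238, and the p-values of the 24 tests are unadjusted. In 22 of the 24 p reached that smallest value, because all 6 organ libraries lay below all 3 of T0. The other two were *Atp6v0a2* minus *Atp6v0a4* in tumour and spleen, each with exact permutation p = 0.0952. All 24 differences were below 0. How many other gene pairs would reach the smallest p was not computed. Among single genes, 16.2% had every library outside the lymph nodes below every T0 library. The isoforms were sorted by breadth of expression, and the pairs chosen, with earlier results of these data known. A p at the smallest value records only that the organ libraries lay below those of T0, not the size of the shift. These p-values are therefore no independent evidence of the division. The pairs left out *Atp6v0a1*, the broad isoform that was not depleted. Set against *Atp6v0a4* afterwards, it moved by -0.02 in tumours, -0.75 in spleen and -0.80 in lung (exact permutation p = 1, 0.381 and 0.762), so that 22 of 27 tests over 9 pairs reached the smallest p. The tests share the T0 libraries, and *Atp6v1g1* entered with both of its few-tissue partners.

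The small membrane subunit e has the isoforms *Atp6v0e* and *Atp6v0e2*. *Atp6v0e* had the widest spread in T0 among the genes listed by library here, at -1.15, -0.44 and 0.67. Its level was -3.16, -3.63 and -4.65 in tumours under IgG and -4.23, -5.19 and -5.12 under anti-PD-1. The spleen gave -3.69, -4.42 and -5.96 under IgG and -4.18, -7.19 and -6.19 under anti-PD-1. Even the highest of these lay below the lowest of T0. It was depleted in 9 of 10 groups and averaged -4.78 ± 0.70 (limma adjusted p = 1.71e-07), and in the liver library under anti-PD-1 the change of -3.02 did not pass (adjusted p = 0.259). *Atp6v0e2* was at 0.51, 0.48 and 0.70 in T0. In tumours it was at 0.15, 0.61 and 0.65 under IgG and -0.17, -0.12 and 0.11 under anti-PD-1. For spleen the levels were -0.77, 0.11 and 0.66 under IgG and -0.02, 0.67 and 0.19 under anti-PD-1. All 3 tumour libraries under anti-PD-1 lay below T0, while the other tumour and spleen groups overlapped with it. The mean change was -0.60 ± 0.68, with no call in any group. The difference between the isoforms moved by -3.66 in tumours, -4.54 in spleen and -4.58 in lung.

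Subunit a, which holds the proton half-channels, had the fewest calls of any subunit. The table targets 4 genes for it, *Atp6v0a1*, *Atp6v0a2*, *Atp6v0a4* and *Tcirg1*, the last known from osteoclasts and outside the naming rule. *Atp6v0a2*, the isoform of Golgi and endosomes, was depleted in 3 of 10 groups (spleen, lung and peritoneal metastases under anti-PD-1), with a mean change of -2.74 ± 0.85 (limma adjusted p = 0.0143). It was at 0.21, 0.38 and 0.60 in T0, at -2.49, -2.33 and -2.34 in tumours under IgG and at -2.18, -3.10 and -0.11 under anti-PD-1. Spleen levels were -3.25, -0.52 and -1.19 under IgG and -1.97, -6.87 and -0.19 under anti-PD-1, so that the spleen call under anti-PD-1 had 1 library far below the other two. That library, replicate 2, had 24.1% of all sgRNAs at the lowest value, and without it the change of *Atp6v0a2* was -1.48 and did not pass. The call of *Atp6v0a2* over the mean of the groups was also lost without any one T0 library (adjusted p = 0.0575, 0.0713 and 0.0949 by limma). *Atp6v0a1* did not pass in any group (changes -1.59 to -0.05, mean -0.65 ± 0.84), nor did *Atp6v0a4* (-1.31 to 0.26, mean -0.39 ± 0.73). *Tcirg1* was at 0.70, 0.33 and 0.44 in T0, at -0.28, 0.54 and -0.55 in tumours under IgG and at 0.16, 0.76 and -1.32 under anti-PD-1. In spleen the libraries read -0.66, 0.15 and 0.89 under IgG and 0.32, -1.64 and -0.06 under anti-PD-1. All 3 spleen libraries under anti-PD-1 lay below T0, and the other 3 groups overlapped with it. *Tcirg1* passed in 0 of 10 groups with changes of -1.19 to -0.23. By limma none of the 10 reached p below 0.05 even without adjustment.

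In V1, *Atp6v1a* encodes the catalytic subunit A, which hydrolyses ATP. It was at -0.40, -0.34 and 0.12 in T0. In tumours its level was -4.49, -3.91 and -3.12 under IgG and -5.21, -4.87 and -3.68 under anti-PD-1. The spleen values were -4.92, -4.82 and -4.90 under IgG and -5.28, -7.16 and -5.02 under anti-PD-1. All 12 values lay below T0. *Atp6v1a* was depleted in 10 of 10 groups, with changes from -5.61 to -3.63 and a mean of -4.91 ± 0.73 (limma adjusted p = 2.25e-07).

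Subunit B alternates with A in the V1 head and binds nucleotide without hydrolysing it. Its broad isoform *Atp6v1b2* was at -0.20, 0.23 and 0.80 in T0. It was at -5.11, -5.00 and -4.95 in tumours under IgG and -5.02, -4.58 and -5.10 under anti-PD-1, a spread of 0.08 and 0.28 (SD, n = 3). Spleen libraries gave -4.03, -5.81 and -4.35 under IgG and -4.93, -4.39 and -3.81 under anti-PD-1. The tumour libraries were thus close to each other and all lay below T0. Its change averaged -5.05 ± 0.65 (limma adjusted p = 8.95e-09) and passed in 9 of 10 groups, the liver library under anti-PD-1 being the exception at -3.50 (adjusted p = 0.0811). *Atp6v1b1*, the kidney and inner ear isoform, was at -0.10, -0.12 and -0.02 in T0. In tumours it was at -0.09, -0.44 and -0.73 under IgG and -0.49, -0.15 and 1.08 under anti-PD-1. The spleen libraries stood at -0.21, -1.35 and -1.49 under IgG and -0.60, -2.99 and 0.46 under anti-PD-1. All 3 spleen libraries under IgG lay below T0, the other 3 groups overlapped with it, and the mean change of -0.63 ± 0.87 did not pass. The difference between the isoforms moved by -5.18 in tumours, -3.88 in spleen and -4.13 in lung.

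The peripheral stalk showed the same division for both of its subunits. *Atp6v1g1*, the broad isoform of subunit G, was at -0.46, 0.00 and 1.20 in T0. In tumours it was at -4.37, -5.94 and -4.75 under IgG and -4.10, -5.83 and -5.65 under anti-PD-1. Levels in spleen were -4.29, -6.19 and -5.03 under IgG and -4.89, -5.68 and -5.61 under anti-PD-1. No library overlapped with T0, and 10 of 10 groups passed, with changes from -7.29 to -5.27 and a mean of -5.81 ± 0.62 (limma adjusted p = 8.73e-11). *Atp6v1g2*, the brain isoform, was at 0.58, 0.41 and 0.54 in T0, at 1.04, 0.67 and 0.46 in tumours under IgG and at 0.19, 1.43 and 0.10 under anti-PD-1. Values in spleen were 0.61, -0.39 and 1.52 under IgG and 0.42, 0.68 and 0.52 under anti-PD-1. *Atp6v1g3*, the kidney isoform, was at 0.60, 0.75 and 0.61 in T0, at 1.01, 0.48 and 0.61 in tumours under IgG and at 0.57, 0.77 and 0.34 under anti-PD-1. In spleen the level was 0.64, 0.40 and 0.86 under IgG and 0.83, -0.35 and 0.59 under anti-PD-1. Both isoforms overlapped with T0 in tumour and spleen, and their mean changes, 0.06 ± 0.76 and -0.22 ± 0.78, changed sign under other centrings. Against *Atp6v1g2*, *Atp6v1g1* moved by -5.49 in tumours, -5.58 in spleen and -6.42 in lung, the largest shifts of the 8 pairs.

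Subunit E completes the peripheral stalk. *Atp6v1e1*, its broad isoform, was depleted in 9 of 10 groups, with changes from -6.14 to -3.77 and a mean of -4.70 ± 0.70 (limma adjusted p = 2.19e-07). Its changes in the 6 tumour libraries ran from -4.43 to -3.61 (median -4.22). *Atp6v1e2* ran from -0.95 to 0.05 (median -0.47) in the same libraries. The difference between the isoforms moved by -3.71 in tumours, -3.50 in spleen and -3.79 in lung.

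The central stalk subunits *Atp6v1d* and *Atp6v1f*, both single-copy, had mean changes of smaller size than the proteolipids. *Atp6v1d* passed in 9 of 10 groups (-5.16 to -3.07, mean -4.05 ± 0.80, limma adjusted p = 5.78e-05). *Atp6v1f* passed in 6 of 10 (-4.88 to -2.50, mean -3.41 ± 0.71, adjusted p = 0.000142). In the tumour libraries the change of *Atp6v1d* ran from -4.62 to -2.77 and that of *Atp6v1f* from -3.43 to -2.27, so both stayed below T0 throughout. The difference between these genes and the proteolipids was not tested.

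Subunits C and H, which govern the coupling of V1 to V0, had the smallest changes of the depleted V1 genes. *Atp6v1h*, single-copy, passed in 6 of 10 groups (-5.43 to -0.95, mean -3.14 ± 0.79, limma adjusted p = 0.00191). It was the only one of the 7 single-copy genes with a library not below all of T0, 25 of 26 lying below. *Atp6v1c1*, the broad isoform of subunit C, passed in 5 of 10 groups (-3.79 to -0.70, mean -2.62 ± 0.72, adjusted p = 0.00433), and all 26 libraries lay below T0. Taking the median of the sgRNAs instead of their mean ended the calls over the mean of the groups for *Atp6v1h* (adjusted p = 0.0509 by limma), *Atp6v1c1* (0.430), *Atp6v1f* (0.0882) and *Atp6v0a2* (0.0886). *Atp6v1c2* passed in none (-1.42 to 0.91, mean -0.39 ± 0.81), and the difference between the isoforms moved by -2.28 in tumours, -3.02 in spleen and -2.20 in lung.

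*Atp6ap1* encodes the accessory membrane protein Ac45, which takes part in assembly of the pump. It was at -0.16, 0.21 and 0.96 in T0. In tumours its level was -3.57, -4.66 and -4.05 under IgG and -4.16, -4.31 and -3.32 under anti-PD-1. The levels in spleen were -5.26, -3.67 and -4.83 under IgG and -4.81, -6.02 and -3.27 under anti-PD-1. All 12 values lay below T0, and *Atp6ap1* was depleted in 10 of 10 groups (-5.99 to -4.26, mean -5.19 ± 0.68, limma adjusted p = 1.45e-08).

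The single sgRNAs followed their genes, with exceptions, and some depleted genes had few or no sgRNAs that passed. By limma per sgRNA, adjusted over 10640 sgRNAs, 277 of 1150 sgRNA-by-group values outside the lymph nodes were depleted, against a background of 4.82%. The calls were 139 of 350 for single-copy subunits, 137 of 400 for broad isoforms and 1 of 400 for isoforms of few tissues. Against the mean of the 10 groups, 41 of 115 sgRNAs passed (background 7.85%), 22 of 35 single-copy, 19 of 40 broad and 0 of 40 of few tissues. Without T0 replicate 3 the 277 calls fell to 180. At the level of genes, the share of all gene-by-group values called fell as well, from 12.4% to 10.2%. The like share of all sgRNA values without that library is not given here. Outside the lymph nodes 49.2% of the single-copy sgRNA values sat at the lowest value, against 41.5% for broad isoforms and 5.48% for isoforms of few tissues.

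All 5 sgRNAs of *Atp6v0c* passed against the mean of the groups, with changes of -7.48 to -5.42, and the lowest of them sat at the floor in 26 of 26 libraries. The 5 sgRNAs of *Atp6v0b* ran from -6.75 to -3.96, those of *Atp6v0d1* from -7.22 to -3.62 and those of *Atp6v1a* from -6.62 to -3.30. Those of *Atp6ap1* ran from -6.24 to -3.58 and those of *Atp6v0e* from -5.50 to -3.71. In these genes the mean change of every sgRNA was thus below 0, though not every sgRNA passed. Against the mean of the groups, 3 of 5 passed for *Atp6v1a* and *Atp6v0d1*, and 4 of 5 for *Atp6v0b*, *Atp6v0e* and *Atp6ap1*. Support was weaker for some depleted genes not listed here by sgRNA. For *Atp6v1d* and *Atp6v1e1* 3 of 5 passed, for *Atp6v1f* 2, for *Atp6v1h* and *Atp6v1c1* 1 each and for *Atp6v0a2* 0. The highest sgRNA of *Atp6v0d1* had a highest group change of 2.15 and lay below every T0 library in 22 of 26. *Atp6v1b2* was split, with 4 sgRNAs between -6.72 and -5.84 and 1 at 0.02 ± 1.53 that sat at the floor in 0 of 26 libraries. In *Atp6v1g1*, 4 sgRNAs lay between -7.38 and -5.81 and the other at -2.52. Among the isoforms of the same subunits the sgRNAs of *Atp6v1g2* ran from -0.36 to 0.56, of *Atp6v1g3* from -0.93 to 0.30, of *Atp6v1b1* from -1.15 to 0.16, of *Atp6v0e2* from -1.27 to -0.11 and of *Atp6v0d2* from -2.32 to 0.63. No sgRNA of these 5 isoforms passed against the mean of the groups, and the 1 group call among isoforms of few tissues was an sgRNA of *Atp6v0d2*.

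Across the 5 organs outside the lymph nodes limma's F-test called 0 of 23 members (background 0.241%). The authors had already removed batch effects between organs with ComBat, so this test cannot show that the organs did not differ. *Atp6v0d1* was the 1 member below 0.05 before adjustment (limma adjusted p = 0.695). Its change averaged -6.60 ± 0.65 in lung (SD, n = 6) against -4.49 ± 0.80 in the primary tumour, -5.26 ± 0.85 in spleen, -5.65 ± 1.04 in peritoneal metastases (n = 5) and -4.55 ± 0.33 in liver (n = 3). With the lymph nodes left out of the fit, *Atp6v0d1* passed (limma adjusted p = 0.0419). The share of all genes passing the F-test in that fit is not given here. Depleted calls against T0 rose in it from 12.4% to 17.6% of all gene values outside the lymph nodes. The lung groups also had the lowest medians of all genes and held the 3 libraries with the most sgRNAs at the lowest value, up to 42.6%, and the part of depth in the lung values was not tested.

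No member passed limma's test between anti-PD-1 and IgG. For the mean over organs outside the lymph nodes 0 of 23 passed, against a background of 0.0962%, and 1 did at an unadjusted p under 0.05. This was *Atp6v1h*, higher under anti-PD-1 by 1.61 ± 0.54 (limma adjusted p = 0.9997), with organ differences of 1.73 in tumours, -0.10 in spleen, 2.70 in lung, 2.81 in liver and 0.93 in peritoneal metastases. Within the 7 organs taken singly, 0 of 161 member-by-organ differences passed (background 0.151%), and 7 did at an unadjusted p under 0.05. For the mean of the lymph nodes 0 of 23 passed (background 0.770%), and 2 did at an unadjusted p under 0.05. The F-test of treatment by organ called 0 of 23 members and 0% of all genes, with 0 members at an unadjusted p under 0.05. The members' differences outside the lymph nodes ran from -0.81 to 1.61 with a median of 0.02.

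The nontargeting median of the lymph node libraries lay near the floor, between 0 and 1.26 on the log2(signal + 1) scale, which left little room for a value below it. None of the 92 member-by-group values was depleted by limma (0% of all values; 0 at an unadjusted p under 0.05 in that direction), and 8 were enriched (8.70%), against 19.7% of all gene values. Isoforms of few tissues had 7 of 32 values enriched (21.9%), close to the share of all genes, and broad isoforms 1 of 32 (3.1%). Of the 8, 7 thus fell on isoforms of few tissues, 1 on *Atp6v0a1* and none on a single-copy subunit. The highest was *Atp6v1g2* in nondraining lymph nodes under IgG, with levels of 4.07, 4.16 and 6.69 and a change of 4.46 ± 1.01 (adjusted p = 0.00611). *Atp6v0c* changed there by -0.16 and *Atp6v1g1* by -0.68. Between 66.1% and 94.8% of the V-ATPase sgRNAs of a lymph node library were at the lowest value. The 8 enriched calls became 3, 2 and 3 without T0 replicates 1, 2 and 3, and 5 without replicate 2 of the draining lymph nodes under anti-PD-1. On the values as deposited, without centring, 92 of 92 were depleted and 0 enriched. On those values the nontargeting median itself was 7.61 to 8.22 in T0, far above that of the lymph nodes. The share of all genes called in that setting is not given here, so the 92 calls are no result about the V-ATPase.

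Other pumps and the enzymes that work at acid pH were set beside the V-ATPase. Of 15 genes of the mitochondrial ATP synthase, the related rotary enzyme that makes ATP, 12 were depleted over the mean of the 10 groups, and 65 of 150 gene-by-group values (43.3%) were called. The lowest were *Atp5a1* (-5.53 ± 0.70), *Atp5b* (-5.47 ± 0.69) and *Atp5c1* (-4.68 ± 0.72), subunits of its catalytic head and stalk. The 3 genes of P-type proton pumps, *Atp4a*, *Atp4b* and *Atp12a*, had changes of -0.63, -0.55 and -0.55 and 0 of 30 calls by limma, and none of the 30 was below 0.05 before adjustment. Of 34 lysosomal acid hydrolase genes, whose products need the pH the pump maintains, 0 of 340 gene-by-group values were called by limma, and 10 were lower at an unadjusted p under 0.05. The median change of the list was -0.42 against -0.55 over all genes and -3.14 over the 23 V-ATPase genes.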

How the data were processed

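Integrated sgRNA sequences were amplified from genomic DNA of sorted T cells and sequenced by the authors, who counted reads with MAGeCK-VISPR, normalised to the nontargeting sgRNAs and removed batch effects between organs with ComBat. The deposited values are therefore a normalised signal per sgRNA, not whole counts, and count models were not used. The table had values for 41 of 43 samples, and 2 were not analysed here. It had 0 columns of no sample. Values were analysed as log2(signal + 1), taken as the mean of a gene's 5 sgRNAs less the library's nontargeting median, and fitted with limma 3.58.1 (R 4.3.3) on all 41 libraries with 1 mean per group, Benjamini-Hochberg adjusted over 2078 genes or 10640 sgRNAs. Isoform pairs were tested by exact permutation (scipy 1.17.1). The fit was tested on simulated data.

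Members and gene lists, including the division by breadth of expression, were chosen with earlier results of these data known. Values by library were given for the 8 members depleted in most groups outside the lymph nodes (ties by mean change), the other isoforms of their subunits and *Tcirg1*, with the 3 lowest genes of each pathway list. *Atp6v0a2*, *Atp6v1h* and the split of *Atp6v1b2* were described after their values were seen. Alternatives covered the pseudocount (10), the summary over sgRNAs, the centring, a filter on low sgRNAs, the libraries fitted, a replicate block, values at the shared minimum and each library left out. Leaving out lung was added after seeing the data, as were the contrast over the mean of groups and the pair *Atp6v0a1* and *Atp6v0a4*.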

Additional observations from a re-analysis of the deposited data

How the results depend on the processing

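Depletion outside the lymph nodes, 117 of 230 calls, lay between 89 (median of the sgRNAs, 8.91% of all gene values called) and 142 (only the groups compared, 23.8%) under the alternatives other than the filter on low sgRNAs, against 12.4% in the fit reported. With one library left out it lay between 102 (without T0 replicate 3, 10.2%) and 119 (without nondraining lymph nodes anti-PD-1 replicate 3, 13.2%). Of the 117, 23 were lost on leaving out some one library, 28 with the median of the sgRNAs and 8 when all sgRNAs set the centre. The members depleted over the mean of the groups numbered 10 to 14 and, with one library left out, 13 to 14. Leaving out the lowest 10% of sgRNAs by mean signal left 65 of the 115 V-ATPase sgRNAs and 0 for *Atp6v0b*, *Atp6v0c* and *Atp6v0e*, because it removes sgRNAs that were depleted. It gave 6 calls in all (1.05% of all gene values), 1 single-copy and 5 paralogous, 0 members over the mean of the groups, 0 sgRNA calls, a class difference of -1.83 and 10 pair tests of 24. Other values of the class difference were -2.12 with log2(signal + 10), -3.98 with the median of the sgRNAs, -2.29 with the proteolipids counted as paralogous, and -3.64 to -3.32 with one library left out. Single-copy and paralogous calls lay between 52 and 62 and between 50 and 58 with one library left out, and the sgRNA calls between 180 and 289. With 2 T0 libraries the smallest exact p of a pair test is 0.0714, so that none of the 24 could pass, and the range with one library left out was 0 to 23. Fitting only the groups compared called 3 values enriched in the single liver library under anti-PD-1, against 0.

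In the lymph nodes, depleted calls were 92 on values as deposited and 5 with the nontargeting mean. Enriched calls were 0 with the median of the sgRNAs, as deposited and with the nontargeting mean, 2 when only the groups compared were fitted, and 2 to 11 with one library left out. Treatment calls within organs were 1 as deposited, 2 with the nontargeting mean, 1 with the nontargeting mean and the lymph nodes left out, and 0 to 1 with one library left out (1 for *Atp6v0a1* without draining lymph nodes IgG replicate 1 and for *Atp6v1b1* without draining lymph nodes anti-PD-1 replicate 1). Over the mean of the lymph nodes the range was also 0 to 1, with *Atp6v1b1* called without the latter library or without nondraining lymph nodes IgG replicate 3. The organ F-test called 1 member with the lymph nodes left out, a fit for which the share of all genes called is not given here.

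Reversed signs were few. *Atp6v1b2* after the low filter, which left its 1 undepleted sgRNA, had a mean change of 0.021, group changes of 0.43 in tumours and 1.36 in lung under anti-PD-1, 0.41 in spleen and 0.44 in lung under IgG and 0.76 in peritoneal metastases under anti-PD-1, and a difference from *Atp6v1b1* of 0.89 in spleen and 1.91 in lung. *Atp6v1g1* in liver under IgG was at 0.39 in the same setting. Isoforms of few tissues near 0 turned with the centring. With the nontargeting mean, *Atp6v1c2* was at 0.017, *Atp6v1g3* at 0.19 and *Atp6v0a4* at 0.019, each the same with the lymph nodes left out. *Atp6v1g3* was at 0.18 with the median of the sgRNAs and 0.16 with the median of all sgRNAs, and *Atp6v1g2* at -0.53 as deposited. The cause of these changes was not tested beyond what is stated.

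By gene, replicate numbers did not meet the mark for pairs, a correlation above 0.1 in every pair. Deviations of libraries with the same number in different groups correlated across genes between -0.36 and 0.27 (median -0.05), and 21 of 40 libraries (52.5%) correlated best with one of their own number, which 33.4% of the candidates carried. With the replicate block there were 121 calls outside the lymph nodes, 9 enriched in the lymph nodes, 14 members over the mean of the groups and 281 sgRNA calls. The block turned the sign of *Atp6v1g2* to -0.015 and changed no call over the mean of the groups.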

Other observations

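The T0 libraries differed among themselves at the V-ATPase genes. Replicate 3 had the highest level of the 3 T0 libraries for 7 of 7 single-copy subunits and 6 of 8 broad isoforms, against 4 of 8 isoforms of few tissues and 43.9% of all genes. Replicate 3 minus the mean of replicates 1 and 2 had a median of 0.70 for single-copy subunits, 0.79 for broad isoforms, 0.06 for isoforms of few tissues and 0.04 over all genes, on the log2 scale. For the 15 mitochondrial ATP synthase genes it was highest in 13, with a median of 0.33, and for the 34 lysosomal acid hydrolases in 8, with a median of 0.01. These values are a description of 3 libraries and were not tested.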
